A study of Mus musculus with 8 samples.

Results

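The clustered protocadherins are the *Pcdha*, *Pcdhb* and *Pcdhg* genes on mouse chromosome 18. Their members here are the genes of the GENCODE vM1 annotation of mm9 whose names begin with *Pcdha*, *Pcdhb* or *Pcdhg*, and the data are the CpGs listed in their first exons and in the 1 kb upstream of each first-exon TSS (the promoter). The annotation holds 25 such gene names with 42 first exons, of which 24 contain or follow at least 1 listed CpG. These regions hold 384 of the 757812 CpGs listed in the series, and 343 of them had a coverage of at least 10 in the 4 oxBS libraries.

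NPCs were derived from mouse A2lox.cre ES cells (a male 129P2/OlaHsd line) that carried an inducible shRNA, directed against *Tet3* (shTet3, *Tet3* KD) or non-targeting (shScr, the control). Doxycycline, which switches the shRNA on, was given to all cultures at 2 µg/ml for 5 days. Each shRNA had 2 replicates. Each replicate had a bisulphite library (BS, which reads 5mC and 5hmC as methylated) and an oxidative bisulphite library (oxBS, which reads 5mC alone). BS and oxBS libraries of an shRNA with the same number were taken to share their DNA. There were thus 8 libraries in 4 groups of 2. The shRNAs were carried by selected ES cell clones, and neither the labels nor the methods say whether the replicates of an shRNA were separate cultures. A p-value from a test that uses the spread between replicates therefore covers the spread between these samples, which may be technical. Tests on pooled calls cover counting error only. The libraries hold methylation calls only, so neither the loss of *Tet3* mRNA nor markers of NPCs were checked in them. The libraries held 42516767 to 61865967 calls, and the median coverage of the protocadherin CpGs was 46 to 63.5 calls per library.

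Clustered protocadherins are cell adhesion proteins of neurons, and the combination of isoforms on a neuron's surface serves in self-recognition and self-avoidance. In the *Pcdha* and *Pcdhg* subclusters, each variable first exon has its own promoter and is spliced to constant exons shared by the subcluster, whereas the *Pcdhb* genes lack shared constant exons. Most variable promoters are switched on in a stochastic choice that differs from cell to cell, whereas the C-type exons at the 3′ end (*Pcdhac1*, *Pcdhac2*, *Pcdhgc3*, *Pcdhgc4* and *Pcdhgc5*) are under other control. CTCF and cohesin bind most of these promoters and loop them to distant enhancers, and methylation of the CpGs in CTCF sites impairs the binding of CTCF. TET3 is a dioxygenase that oxidises 5mC to 5hmC.

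The first exons lie between positions 37089939 and 37306184 (*Pcdha*), 37424652 and 37681073 (*Pcdhb*), and 37833989 and 37984733 (*Pcdhg*) of chromosome 18 (mm9), all on the plus strand. The vM1 annotation groups the first exons of *Pcdha* under the gene names *Pcdha11* and *Pcdha3*, and those of *Pcdhg* under *Pcdhgc5*. The 16 first exons whose own names differ from these gene names were therefore named by their distance to the end of the subcluster, which matched the length of a RefSeq gene within 297 bases, with the next best match at least 2395 bases away. The first exon named *Pcdha11* in this way held no listed CpG. No listed CpG was found either for *Pcdha9*, *Pcdha10*, *Pcdha12*, *Pcdhgb6*, the 2 first exons of *Pcdhb8*, and *Pcdhb4*, *Pcdhb5*, *Pcdhb6*, *Pcdhb9*, *Pcdhb10*, *Pcdhb11*, *Pcdhb13*, *Pcdhb14*, *Pcdhb19*, *Pcdhb20* and *Pcdhb21*. Promoter CpGs were listed for *Pcdhac1*, *Pcdhac2*, *Pcdhga11* and *Pcdhgc3*, so all but 30 of the 343 covered CpGs were inside first exons. *Pcdha* had 120 covered CpGs, *Pcdhb* had 70 and *Pcdhg* had 153.

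The listed CpGs were 9.15% of the 3738 CpGs in the first exons of the annotated genes. MspI, which cuts the DNA for the library, had a median of 6 sites in the first exons with listed CpGs and of 3 sites in those without. Variable exons resemble each other, and 65 of the 343 covered CpGs lay in a window of 75 bases that matched another place in the clusters with at most 3 mismatches after C-to-T conversion. Their 5mC was 32.5% and 47.2% with shScr against 31.0% and 27.5% with shTet3, beside 37.5% and 45.0% with shScr against 31.3% and 29.3% with shTet3 for the other 278 CpGs. shTet3 minus shScr was −10.6 points over the former and −10.97 over the latter, so that the difference was as large without them.

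Clustered protocadherin CpGs stood at intermediate levels in control NPCs. Of the 343 CpGs, 71.1% had a mean BS level of 10 to 80% in shScr, against 28.9% of all CpGs tested and 11.3% of the CpGs in promoters and first exons of other genes. Levels below 10%, which 83.6% of the CpGs of other promoters and first exons had, were found at 13.7% of the protocadherin CpGs. Levels of 80% or more were found at 7.29% of them, and the rest were not covered in both BS libraries of shScr. The 4 oxBS libraries put mean 5mC of the protocadherin CpGs at 36.5% and 45.4% in shScr, and at 31.2% and 28.9% in shTet3. The corresponding levels of other promoters and first exons were 6.21% and 7.36% with shScr against 5.21% and 5.36% with shTet3.

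**Figure D1:**
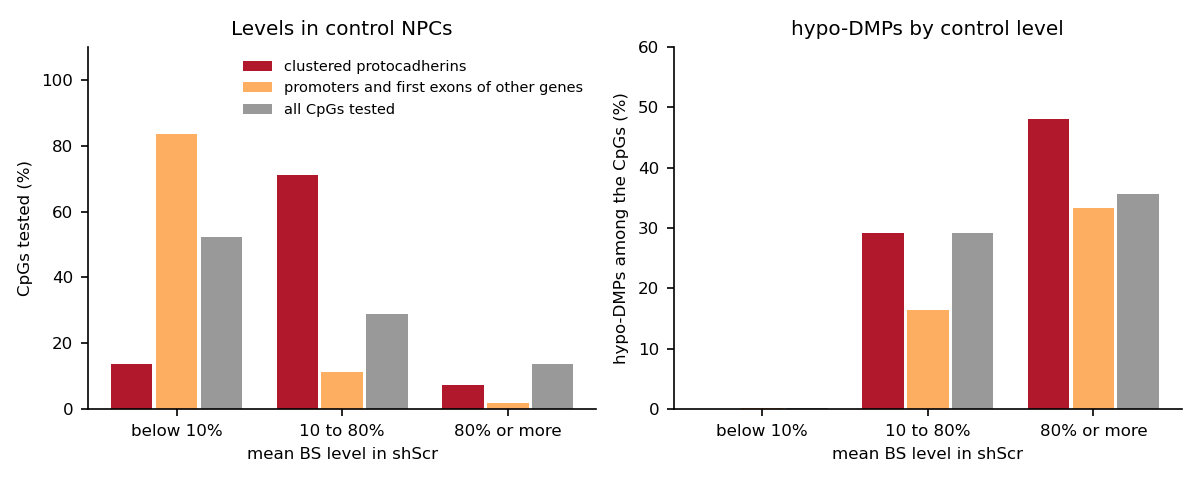
CpGs grouped by their mean BS level in shScr, for the clustered protocadherins, the promoters and first exons of other genes, and all CpGs tested. The left bars give the percent of each set's CpGs at that level and the right bars the percent of these called hypo-DMPs. At 10 to 80%, the protocadherins hold 71.1% of their CpGs and 29.1% of these are hypo-DMPs.

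After *Tet3* KD, mean 5mC of the first exons was lower in all 3 subclusters in these libraries. Pairs of values are given throughout in the order of replicate 1 and replicate 2. In *Pcdha* first exons (98 CpGs), 5mC was 36.8% and 43.2% with shScr against 33.7% and 25.4% with shTet3. *Pcdhb* first exons (70 CpGs) had 42.0% and 52.3% with shScr against 35.6% and 28.5% with shTet3. In *Pcdhg* first exons (145 CpGs), the values were 37.1% and 49.9% with shScr against 31.7% and 34.6% with shTet3. Both shTet3 replicates were below both shScr replicates in each of these sets, and the differences of the means were −10.4 percentage points for *Pcdha*, −15.1 for *Pcdhb* and −10.3 for *Pcdhg*. Each gave p = 0.33 in an exact permutation test (two-sided), and 2 libraries against 2 allow no smaller p. The shScr replicates themselves differed by 6.48 points in *Pcdha*, 10.3 in *Pcdhb* and 12.8 in *Pcdhg*, so that in *Pcdhg* the spread of the controls exceeded the difference between the shRNAs. Without shScr replicate 2 the differences were −7.19, −9.23 and −3.92 points, respectively, and without shTet3 replicate 2 that of *Pcdha* was −5.39.

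The few promoter CpGs had lower levels than the first exons. Over 22 CpGs of *Pcdhac1* and *Pcdhac2*, 5mC was 17.6% and 12.4% with shScr against 10.5% and 8.20% with shTet3 (exact permutation p = 0.33). Over 8 CpGs of *Pcdhga11* and *Pcdhgc3*, 5mC was 28.5% and 20.8% with shScr against 10.3% and 29.5% with shTet3, so that the groups overlapped (exact permutation p = 1). Its difference of −4.75 points became 4.82 without shTet3 replicate 1.

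**Figure D2:**
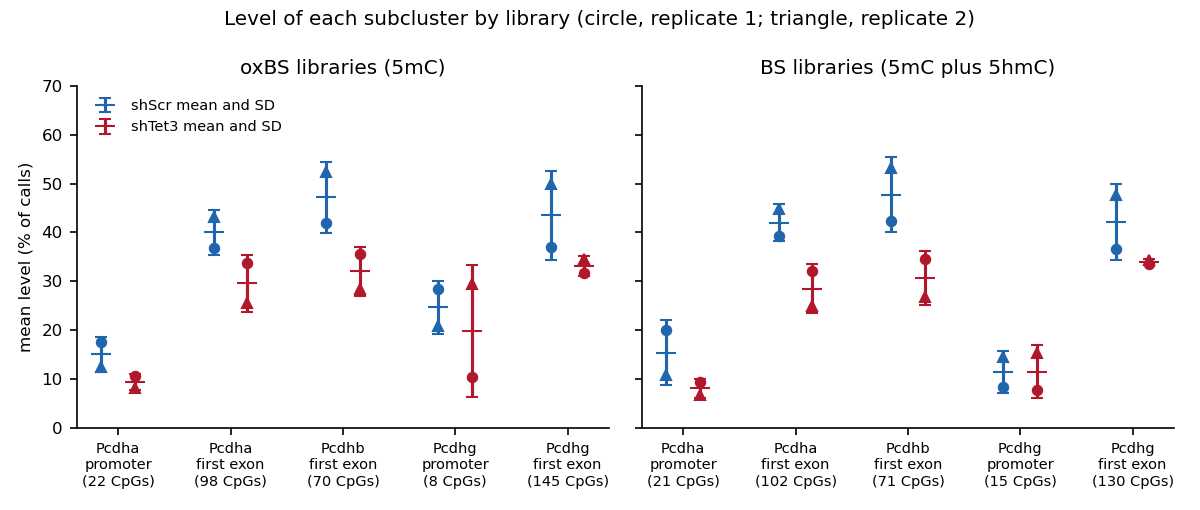
Mean level (percent of calls read as methylated) of each subcluster's promoter and first-exon CpGs in oxBS and BS libraries. Circles are replicate 1, triangles replicate 2, and bars give the mean and SD of 2 replicates. The first exons of all 3 subclusters lie lower in both shTet3 replicates, and the promoters of *Pcdhg* overlap between the shRNAs.

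Of the 343 CpGs, 88 were hypo-DMPs (25.7%), beside a background of 13.9% of all CpGs tested. A DMP is a CpG at which a logistic regression of the pooled calls gave a *q* value below 0.01 and a difference over 10 percentage points. *Pcdha* had 31 hypo-DMPs (25.8% of its CpGs), *Pcdhb* had 18 (25.7%) and *Pcdhg* had 39 (25.5%). In these oxBS libraries the share differed by less than 1 percentage point between the subclusters. Their median calls per CpG over the 4 libraries were 306, 138.5 and 279, respectively. In the BS libraries the shares were not alike, with 30.9% in *Pcdha*, 31.0% in *Pcdhb* and 14.5% in *Pcdhg*. No hyper-DMP was found in any subcluster of the oxBS libraries by this test, which called 0.0814% of all CpGs. Fisher's exact test on the pooled counts also gave 0. At an unadjusted p under 0.05 with the same difference, Fisher's exact test gave 0 CpGs in that direction. The DMP test covers counting error alone. When the spread between replicates was allowed for by an overdispersion term, an F test called 0 of these CpGs as hypo-DMPs after Benjamini-Hochberg adjustment, and 13 at an unadjusted p under 0.05 with the same difference. The calls also depended on single libraries. Without shScr replicate 2 there were 42 hypo-DMPs and 8 hyper-DMPs, without shTet3 replicate 2 there were 48 and 2, and without shTet3 replicate 1 there were 63 and 0.

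The 2 shTet3 replicates were lower than both controls at 143 of the 343 CpGs (41.7%), against 26.3% of all CpGs tested. The opposite order was found at 6 CpGs (1.75%), against 2.04% of all CpGs. Of the 88 hypo-DMPs, 79 had both shTet3 replicates below the controls, and the median pooled difference of the hypo-DMPs was −22.3 percentage points.

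The shares were also compared within ranges of the BS level in control NPCs, inside which the sets still differed in mean level. At 10 to 80%, the protocadherins had 38.5% and 48.4% in the shScr oxBS libraries. All CpGs tested had 46.5% and 58.3% there, and other promoters and first exons had 32.7% and 38.8%. Mean differences (shTet3 minus shScr) in this range were −11.5, −14.6 and −8.82 points, in the same order. At CpGs with a mean BS level of 10 to 80% in shScr, 29.1% of the protocadherin CpGs and 29.1% of all CpGs tested were hypo-DMPs, and 16.4% of those in promoters and first exons of other genes. At a BS level of 40% or more the shares were 39.0%, 36.3% and 30.2%, and at 80% or more they were 48% (12 of 25 CpGs), 35.7% and 33.2%, in the same order. All 12 of these CpGs were in *Pcdhg* (12 of 19), against 0 of 2 in *Pcdha* and 0 of 4 in *Pcdhb*. None of the 47 protocadherin CpGs below 10% was a hypo-DMP, beside 0.18% of all CpGs tested and 0.14% of those in other promoters and first exons. A call needs a drop over 10 points, for which such levels leave little room. Both shTet3 replicates were lower than the controls at 45.1% of the protocadherin CpGs against 48.8% of all CpGs at 10 to 80%, and at 54.9% against 59.4% at 40% or more. At a BS level of at least 40% in shScr, the protocadherin CpGs (164) had a mean difference of −14.3 points and those of other promoters and first exons (19266) of −14.6. Without regard to level, the gap between protocadherins and other promoters and first exons was 30.3 and 38.0 points in the controls, against 26.0 and 23.6 after *Tet3* KD. shTet3 minus shScr was −9.40 points for this gap (exact permutation p = 0.33), and 0.30 points when CpGs below 40% were left out.

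A test across promoters and first exons of all genes that uses the spread between replicates made no call. Of the 20113 regions with at least 5 covered CpGs, limma with Benjamini-Hochberg adjustment called 0 lower and 0 higher (a background of 0% each at an adjusted p under 0.05), and 842 were lower at an unadjusted p under 0.05 (4.19%). The clustered protocadherins had 20 of these regions. All 20 had a lower mean in shTet3, with a median of −11.01 percentage points, beside 60.1% of all regions and a median of −0.06. Without shScr replicate 2, 14 of the 20 were lower (median −7.07), beside 38.5% of all regions (median 0.01). The regions of all genes were not matched to the protocadherins for their level in the controls. The *Pcdhb1* first exon was the only one of the 20 with an unadjusted p under 0.05, and its limma adjusted p was 0.773.

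Between the subclusters, the differences could not be told from the spread of the libraries. *Pcdha* minus *Pcdhb* was −8.75 and −14.7 points in the controls, and −6.12 and −6.20 points after *Tet3* KD (exact permutation p = 0.33). The gap between *Pcdhb* and *Pcdhg* was 5.38 and 3.98 points in shScr, and 4.99 and −5.85 points in shTet3 (exact permutation p = 0.67). *Pcdha* minus *Pcdhg* was −3.38 and −10.8 points in shScr, and −1.13 and −12.1 points in shTet3 (exact permutation p = 1).

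Among single first exons, 22 of the 23 with a covered CpG had a lower mean 5mC in shTet3, promoter and first exon combined. The exception was *Pcdha3*, with 1 covered CpG. In 13 of the 23 the shTet3 replicates were both lower than the controls, and in none were both higher. Of the 20 regions with at least 5 covered CpGs, 11 had both shTet3 replicates below the controls and 0 had both above, beside 20.5% and 7.91% of the 20113 regions of all genes. Differences ranged from −27.8 to 0.49 percentage points, with a median of −11.4.

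**Figure D3:**
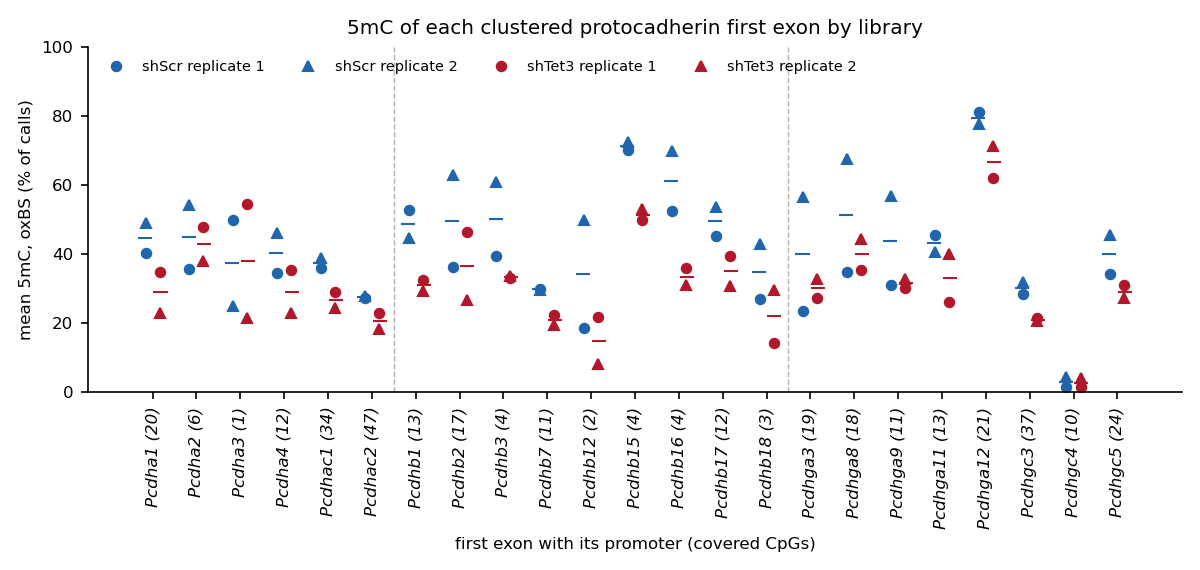
Mean 5mC of each first exon with its promoter in the 4 oxBS libraries, in the order of the exons along the chromosome, with the number of covered CpGs in parentheses. Horizontal ticks are group means and dashed lines separate *Pcdha*, *Pcdhb* and *Pcdhg*. *Pcdhga12* has the highest and *Pcdhgc4* the lowest levels over the covered CpGs, which lie at different distances from the TSS in different exons. The shScr replicates lie far apart at *Pcdhga3*, *Pcdhga8* and *Pcdhga9*.

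*Pcdha1*, the first variable exon of its subcluster in this annotation, had 20 covered CpGs. Mean 5mC was 40.4% and 48.9% with shScr against 34.9% and 23.0% with shTet3, a difference of −15.7 ± 7.20 points (limma SE, adjusted p = 0.773). The 4 CpGs in its first 250 bases stood near 16% in both groups (means of 16.7% and 16.3%), and the 16 CpGs from 2045 bases on had 51.7% with shScr against 32.1% with shTet3. All 9 of its hypo-DMPs were among the latter. For 7 of the 20 CpGs the window of 75 bases was repeated elsewhere in the clusters.

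The hypo-DMP of *Pcdha* with the largest difference was at position 37092253, 2314 bases into the first exon of *Pcdha1*. It was methylated in 51.9% of 27 calls (Wilson 95% interval 33.99 to 69.3) and 52.2% of 23 calls (33.0 to 70.8) in shScr. In shTet3 it was methylated in 8.33% of 36 calls (2.87 to 21.8) and 8.70% of 23 calls (2.42 to 26.8). The BS libraries gave 54.3% and 44.8% with shScr against 19.2% and 35.5% with shTet3 at this CpG, so the groups were also apart there, though by less.

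*Pcdha4* had 12 covered CpGs, all beyond 2000 bases of its first exon. Its 5mC was 34.4% and 46.1% with shScr against 35.3% and 22.9% with shTet3, so that the groups overlapped, and 3 CpGs were hypo-DMPs. *Pcdha2* (6 covered CpGs, 5 of them in repeated windows) also overlapped, with 35.8% and 54.3% with shScr against 47.7% and 38.1% with shTet3.

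The C-type exons *Pcdhac1* and *Pcdhac2* differed in pattern. *Pcdhac1* was partly methylated on both sides of its TSS. Over its 12 promoter CpGs 5mC was 32.1% and 21.0% with shScr against 19.3% and 14.8% with shTet3, with 4 hypo-DMPs. Over its 22 first-exon CpGs it was 38.3% and 48.6% with shScr against 34.4% and 29.4% with shTet3, with 7 hypo-DMPs. The groups did not overlap in either region, with differences of −9.46 ± 5.36 and −11.6 ± 6.35 points (limma SE, adjusted p = 0.773 for both).

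*Pcdhac2* was unmethylated around its TSS. Its 10 promoter CpGs had 0.23% and 2.17% with shScr against 0% and 0.29% with shTet3. Its 10 CpGs within 250 bases of the TSS had a mean of 4.23% with shScr against 4.72% with shTet3. From 500 bases on the level was higher, at 47.8% with shScr against 35.6% with shTet3 over 19 CpGs up to 926 bases, and 74.5% and 64.7% over the 3 CpGs beyond 1000 bases. All 7 hypo-DMPs of *Pcdhac2* lay between 490 and 903 bases from the TSS. Over its whole first exon (37 CpGs) 5mC was 34.4% and 34.7% with shScr against 29.3% and 23.3% with shTet3, a difference of −8.32 ± 4.41 points (limma SE, adjusted p = 0.773).

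*Pcdhb1* is the first gene of the *Pcdhb* subcluster, and none of its listed CpGs had a repeated window. Its 13 covered CpGs, 225 to 944 bases from the TSS, had 52.8% and 44.6% with shScr against 32.4% and 29.4% with shTet3. Both shTet3 replicates were more than 12 points below both shScr replicates, and the difference was −17.8 ± 5.74 points (limma SE, unadjusted p = 0.047, adjusted p = 0.773). There were 7 hypo-DMPs, 6 of them between 254 and 351 bases, where the mean of 7 CpGs was 42.5% with shScr against 20.02% with shTet3.

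The *Pcdhb* hypo-DMP with the largest difference was one of these, at position 37425003, 351 bases into the exon. It was methylated in 61.8% of 102 calls (Wilson 95% interval 52.1 to 70.6) and 54.8% of 84 calls (44.1 to 65.0) in shScr. In shTet3 the values were 12.3% of 57 calls (6.08 to 23.2) and 25.6% of 82 calls (17.4 to 36.0). In the BS libraries this CpG had 63.3% and 52.0% with shScr against 24.2% and 42.7% with shTet3.

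The other *Pcdhb* genes differed in how far apart their replicates lay. *Pcdhb17* (12 CpGs) had 45.3% and 53.6% with shScr against 39.3% and 30.6% with shTet3, with 4 hypo-DMPs, all among the 6 CpGs between 801 and 908 bases. *Pcdhb7* (11 CpGs) had 30.0% and 29.7% with shScr against 22.4% and 19.5% with shTet3, with 1 hypo-DMP. *Pcdhb2* (17 CpGs) had 36.1% and 63.0% with shScr against 46.4% and 26.6% with shTet3, so that each shRNA held a high and a low replicate. Repeated windows held 5 of the 12 CpGs of *Pcdhb17*, 8 of the 11 of *Pcdhb7* and 8 of the 17 of *Pcdhb2*. The 5 *Pcdhb* genes with 2 to 4 covered CpGs (*Pcdhb3*, *Pcdhb12*, *Pcdhb15*, *Pcdhb16* and *Pcdhb18*) had differences from −27.8 points at *Pcdhb16* to −12.9 at *Pcdhb18*. All covered CpGs of these genes except *Pcdhb3* lay in repeated windows. The groups overlapped at *Pcdhb12* and *Pcdhb18*, where the BS differences were −0.40 and −2.06 points. At *Pcdhb3*, *Pcdhb15* and *Pcdhb16* the BS differences were −16.2, −30.2 and −29.9 points. *Pcdhb22* had no CpG covered in all oxBS libraries.

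In *Pcdhg*, *Pcdhga12* was the most methylated first exon. The 21 CpGs of *Pcdhga12* lay between 1195 and 1380 bases from the TSS and had 81.2% and 77.6% with shScr against 62.1% and 71.2% with shTet3. The groups did not overlap, the difference was −12.7 ± 4.97 points (limma SE, adjusted p = 0.773), and 11 of the 21 CpGs were hypo-DMPs, more than in any other first exon apart from *Pcdhac1*, which also had 11 with its promoter. Over the same number of CpGs the BS libraries gave 72.3% and 77.8% with shScr against 66.05% and 71.2% with shTet3, a difference of −6.43 points with 2 hypo-DMPs.

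Within *Pcdhg*, the control replicates differed most at *Pcdhga3*, *Pcdhga8* and *Pcdhga9*. Repeated windows held 11 of 19, 4 of 18 and 4 of 11 of their covered CpGs, respectively. *Pcdhga3* (19 CpGs) had 23.4% and 56.5% with shScr against 27.2% and 32.9% with shTet3. *Pcdhga8* (18 CpGs) had 34.9% and 67.7% with shScr against 35.4% and 44.5% with shTet3. *Pcdhga9* (11 CpGs) had 31.0% and 56.7% with shScr against 30.0% and 32.9% with shTet3. In each of them shScr replicate 1 stood near the shTet3 replicates and shScr replicate 2 stood above them, and limma gave SEs of 13.8, 14.1 and 11.04 points for the differences. The same-numbered BS libraries had the same order of the control replicates, with 31.7% and 46.3% at *Pcdhga3*, 45.9% and 59.2% at *Pcdhga8*, and 29.0% and 52.8% at *Pcdhga9*. In the oxBS libraries the gap was widest between 250 and 500 bases, where *Pcdhga3* had 7.85% and 43.3% in shScr (14 CpGs) and 13.7% and 32.1% in the BS libraries. In this stretch the group means were 25.6% with shScr against 19.5% with shTet3 at *Pcdhga3*, and 34.9% against 27.2% at *Pcdhga9* (8 CpGs). The oxBS order was the opposite at *Pcdhga8*, with 27.8% against 34.8% (4 CpGs). Its replicates there had 5.47% and 50.1% with shScr against 29.5% and 40.1% with shTet3. The BS libraries did not share this order, with 40% and 55.3% with shScr against 44.8% and 30.5% with shTet3 over 4 CpGs. Beyond 1000 bases, the 3 exons had 3 or 4 covered CpGs each, with means of 75.8%, 78.2% and 67.8% with shScr against 55.8%, 51.1% and 42.8% in shTet3.

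*Pcdhga11* had CpGs on both sides of its TSS. Its 7 promoter CpGs had 32.5% and 23.8% with shScr against 11.8% and 33.7% with shTet3, so that the groups overlapped. Its 6 first-exon CpGs had 60.6% and 60.5% with shScr against 42.6% and 47.5% with shTet3, a difference of −15.5 ± 5.12 points (limma SE, adjusted p = 0.773).

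The C-type exons of *Pcdhg* spanned the range from unmethylated to largely methylated CpGs. *Pcdhgc4* was the least methylated first exon over its covered CpGs, 10 CpGs between 338 and 473 bases. It had 1.42% and 4.31% with shScr against 1.56% and 3.92% with shTet3. It had no hypo-DMP, and levels this low leave little room for a drop over 10 points. *Pcdhgc3* was at or near 0% in all 4 libraries up to 94 bases from the TSS (means of 0.10% with shScr against 0.32% with shTet3 over 11 CpGs), and no CpG was covered between there and 897 bases. From 897 to 1000 bases its 9 CpGs had 32.4% with shScr against 23.3% with shTet3. Its 4 CpGs from 1507 bases on had 56.2% and 33.98%. Over the whole first exon of *Pcdhgc3* (36 CpGs), 5mC was 29.3% and 32.9% with shScr against 22.1% and 21.1% with shTet3, a difference of −9.53 ± 3.52 points (limma SE, adjusted p = 0.773).

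*Pcdhgc5* (24 CpGs) had 34.3% and 45.6% with shScr against 31.0% and 27.2% with shTet3, with 7 hypo-DMPs. Overlapping first exons of 2 annotated transcripts were merged here into a stretch of 5534 bases. Its 18 CpGs beyond 2000 bases had 29.1% with shScr against 20.3% with shTet3. The 3 CpGs between 1910 and 1976 bases were all hypo-DMPs, with 79.4% with shScr against 53.5% with shTet3. The largest difference of a *Pcdhg* hypo-DMP was at the last of these, position 37981176, with 73.9% of 115 calls (Wilson 95% interval 65.2 to 81.1) and 83.0% of 47 calls (69.9 to 91.1) in shScr. In shTet3 it had 24 methylated calls of 55 (31.4 to 56.7%) and 14 of 35 (25.6 to 56.4%).

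**Figure D4:**
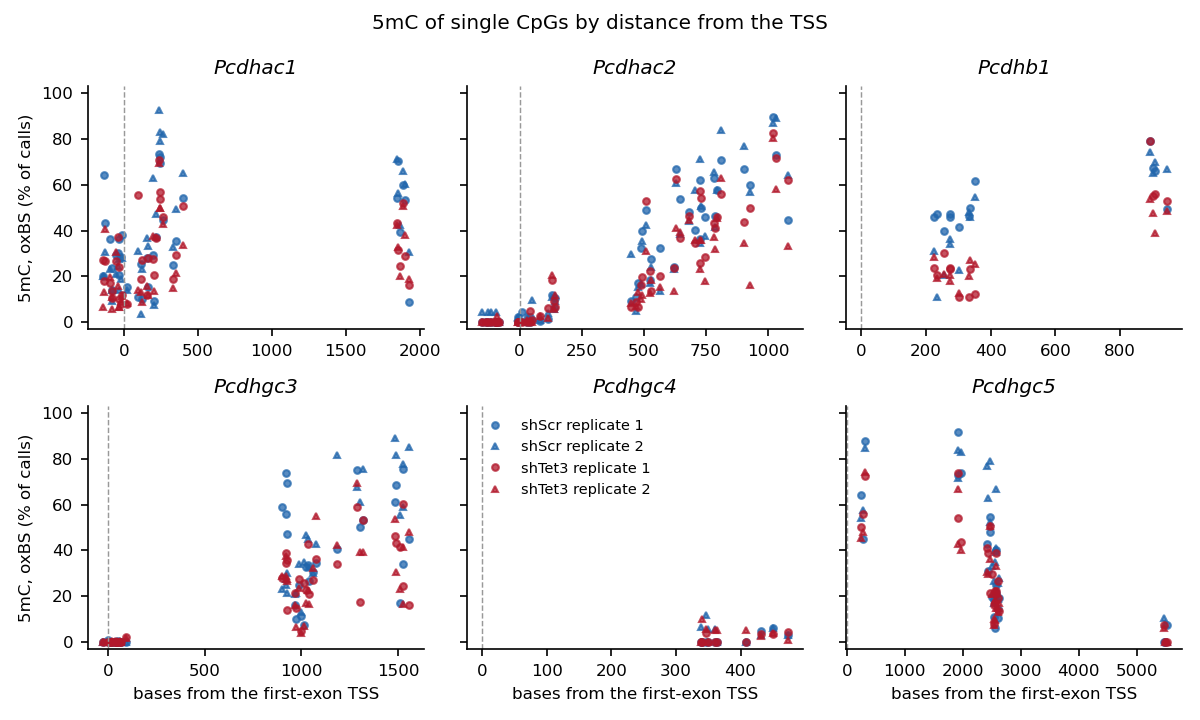
5mC of each covered CpG of the 5 C-type exons and *Pcdhb1* against the distance in bases from the first-exon TSS (dashed line), in the 4 oxBS libraries. *Pcdhac2* and *Pcdhgc3* are near 0% around the TSS and higher further into the exon, *Pcdhgc4* is low at all its covered CpGs, and *Pcdhac1* is partly methylated on both sides of the TSS.

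Along the exons of all members together, the difference was smaller near the TSS, but it did not grow steadily with distance. From the TSS to 250 bases, 52 CpGs of 7 first exons had means of 24.6% with shScr against 19.8% with shTet3. Of these, 21 CpGs of *Pcdhac2* and *Pcdhgc3* had 2.07% and 2.42%, and the other 31 had 39.9% and 31.6%, a difference of −8.26 points. Without *Pcdhac2*, *Pcdhgc3* and *Pcdhgc4* the difference was −10.2 points from 250 to 500 bases and −20.3 from 500 to 1000. For the same exons it was −17.8 points from 1000 to 1500 bases, −11.02 from 1500 to 2000 and −12.3 further on. Over all members, 45 CpGs between 500 and 1000 bases had 53.5% and 38.8%, and 54 CpGs between 1000 and 1500 bases had 69.8% and 53.2%. The levels were lower again at the 34 CpGs from 1500 to 2000 bases (45.6% and 33.3%) and the 67 CpGs further on (40.1% and 27.7%). In the first 500 bases 16.8% of the 113 CpGs were hypo-DMPs, against 32.5% of the 200 CpGs further on. *Pcdhb* had the opposite order, with 9 of 15 CpGs called in the first 500 bases and 9 of 55 beyond, and 6 of the 9 early calls were those of *Pcdhb1*. Different exons fill different distances, so that distance and exon cannot be told apart.

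The BS libraries, which read 5mC and 5hmC together, gave a similar picture for the levels of the first exons. *Pcdha* first exons (102 CpGs) had 39.3% and 44.7% with shScr against 32.1% and 24.9% with shTet3. *Pcdhb* first exons (71 CpGs) had 42.3% and 53.1% with shScr against 34.6% and 26.8% with shTet3. *Pcdhg* first exons (130 CpGs) had 36.6% and 47.7% with shScr against 33.5% and 34.3% with shTet3. The groups did not overlap in any of them, with differences of −13.5, −17.0 and −8.24 points (exact permutation p = 0.33 each). Promoter CpGs of *Pcdha* (21) had 20.03% and 10.7% with shScr against 9.44% and 6.64% with shTet3, and those of *Pcdhg* (15) had 8.35% and 14.5% with shScr against 7.69% and 15.3% with shTet3. This *Pcdhg* set held 8 CpGs of *Pcdhgc3*, all at 0%, where the oxBS set held 1, beside 7 of *Pcdhga11* in both. The BS and oxBS levels of *Pcdhg* promoters are therefore not over the same CpGs.

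In the BS libraries 81 of 339 protocadherin CpGs were hypo-DMPs (23.9%), beside 13.8% of all CpGs tested. There were 2 hyper-DMPs (background 0.0621%), 1 in *Pcdhac2* and 1 in *Pcdhga3*, which in the oxBS libraries had pooled differences of −1.15 and −2.81 points. Of the 88 hypo-DMPs of the oxBS libraries, 83 were covered in the BS libraries. At 78 of these 83 the BS level was also lower in shTet3, and 39 were called. The largest BS count was at *Pcdhac1*, with 17 hypo-DMPs and levels of 45.6% and 39.6% with shScr against 28.2% and 21.0% with shTet3 over 32 CpGs.

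BS minus oxBS, the estimate of 5hmC, was within a few percentage points of 0 in all subclusters. In shScr it was 2.60 and 0.67 points in *Pcdha*, 0.95 and 4.28 in *Pcdhb*, and 0.40 and −0.50 in *Pcdhg*. In shTet3 it was −0.55 and −0.02 points in *Pcdha*, −0.27 and −1.70 in *Pcdhb*, and 2.35 and 0.04 in *Pcdhg*. In shScr, BS exceeded oxBS at 2 protocadherin CpGs of 318 and lay below it at 2 (backgrounds of 0.33% and 0.17% of all CpGs tested). In shTet3 the counts were 0 and 0 of 363 (backgrounds of 0.0239% and 0.0141%), and with the replicate block, 21 CpGs had BS above oxBS and 23 below at an unadjusted p under 0.05 and a difference over 10 points. 5hmC was thus not detectable in the clusters at this depth.

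Other genes of the same family, region or pathway had lower levels on average. Non-clustered protocadherins (11 of 12 listed genes with covered CpGs, 465 CpGs) had 16.5% with shScr against 12.1% with shTet3, with 39 hypo-DMPs (8.39%). The 33 protein-coding neighbours within 500 kb (20 with covered CpGs, 321 CpGs) had 7.81% and 6.45%, with 11 hypo-DMPs (3.43%). Single genes of these lists stood above the protocadherin mean in shScr. They included *Pcdh12* with 78.8% against 41.6% after *Tet3* KD (2 CpGs), *Eif4ebp3* with 81.2% against 64.5% (6 CpGs) and *Pcdh9* with 61.5% against 26.3% (1 CpG), and these were chosen after their values were seen. Among the neighbours, *Taf7*, a subunit of the general transcription factor TFIID that lies between *Pcdhb* and *Pcdhg*, had 0.08% in both groups over 16 CpGs. The promoters and first exons of 13 of 14 genes for chromatin proteins (*Ctcf*, cohesin subunits and their loader, *Smchd1*, DNA methyltransferases and others, 447 CpGs) had 0.09% with shScr against 0.12% with shTet3, with 0 hypo-DMPs. Outside the listed promoters and first exons, the 191 other covered CpGs between the first and the last protocadherin first exon had 56.1% with shScr against 42.3% with shTet3, and 57 of them were hypo-DMPs (29.8%).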

How the data were processed

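Groups were taken from the sample labels. Reads of 75 bases were trimmed with Trim Galore, aligned with Bismark to mm9 and called by the authors, who deposited 2 measures of every CpG, namely the coverage (a count of calls) and which percent of them was C (methylated) or T. Values are not normalized, and every CpG listed had a coverage of at least 5 in each library. Percent times coverage gave whole counts at 100% of CpGs. PCR copies could not be told from independent molecules, so intervals and count tests cover counting error only.

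Levels are unweighted means over CpGs covered at least 10 times in every library compared. First exons are those of protein-coding transcripts, a CpG in both regions counting as first exon. DMPs were called over all CpGs by logistic regression without an overdispersion term and Benjamini-Hochberg adjustment, computed with numpy 2.4.6 and scipy 1.17.1. Regions of all genes were tested with limma 3.58.1 (trend) in R 4.3.3. The tests were checked on simulated data, with counts without spread between replicates and region levels with 1 fixed spread. The check therefore does not show how they behave at the replicate spread of these libraries. Members, gene lists and tests were chosen with earlier results of these data known. First exons given with values in each library are the C-type exons and, per subcluster, the 4 with the largest and the 2 with the smallest difference among those with 10 or more CpGs. *Pcdha2*, *Pcdhga3* and *Pcdhga11* were added after their values were seen. Alternatives were other coverage limits, weightings, promoter and transcript sets, tests, a replicate block and leaving out each replicate. No sequences are printed.

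Same-numbered BS and oxBS libraries of an shRNA were taken to share their DNA, which their titles do not state. To check this, replicate 2 minus replicate 1 was compared between oxBS and BS, with a correlation of r = 0.42 (shScr) and 0.39 (shTet3) across 313 protocadherin CpGs, which are not independent replicates.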

Additional observations from a re-analysis of the deposited data

Results flagged for a closer look

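BS minus oxBS was positive in both shScr replicates and negative in both shTet3 replicates in the *Pcdha* and in the *Pcdhb* regions. In *Pcdhg* it was 0.40 and −0.50 points in shScr, and 2.35 and 0.04 points in shTet3. In *Pcdhb* the sign turned under 2 settings, to −0.63 in shScr with CpGs weighted by their calls, and to 0.025 in shTet3 at a coverage minimum of 20. The difference between the shRNAs (shTet3 minus shScr) was −1.91 percentage points in *Pcdha* and −3.60 in *Pcdhb*. The difference between the shRNAs was not tested here beyond this order of the replicates, and no 2 replicates against 2 can give an exact permutation p below 0.33.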

How the results depend on the processing

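The coverage limits, weightings, promoter lengths, transcript sets and removal of repeated windows left the 5mC differences of the *Pcdha*, *Pcdhb* and *Pcdhg* first exons negative, and leaving out each replicate gave −14.6 to −5.39, −21.4 to −9.23 and −16.7 to −3.92 points. For *Pcdhg* promoters, leaving out each replicate gave −14.3 to 4.82 points in oxBS and −3.74 to 3.84 in BS, where the difference of 0.05 became −0.22 with a coverage minimum of 20 and −3.12 with promoters of 2 kb. The hypo-DMPs (88) numbered 82 with Fisher's exact test and 0 with an F test corrected for overdispersion (13 at an unadjusted p under 0.05), a test with 2 residual degrees of freedom. They numbered 42 to 100 with each replicate left out, and the hyper-DMPs 0 to 8 (2 with the BS libraries). *Pcdha* against *Pcdhg* turned from 0.47 to −0.12 (first exons alone) and −0.89 (promoters alone), with −5.08 to 6.67 on leaving out each replicate, and *Pcdhb* against *Pcdhg* (−5.11) gave −10.6 to 0.71. The gap to other promoters and first exons (−9.40) became 0.30 at BS levels of at least 40% in shScr. BS minus oxBS changed sign as methylated calls over all calls in *Pcdhb* of shScr (−0.63) and *Pcdhg* of shTet3 (−2.34), with a coverage minimum of 20 in *Pcdhb* of shTet3 (0.025), and on leaving out each replicate in *Pcdhg* of shScr (−0.42 to 0.21). The causes were not tested. Labels give shScr and shTet3 the same replicate numbers without saying what these share, and their deviations had r = −0.02 across the 343 CpGs. With the replicate block the hypo-DMPs numbered 83, the regions called 0, and the mean difference of the pairs equals that of the groups by arithmetic. The block changed no other call except that BS exceeded oxBS at 1 CpG in shScr in place of 2 and lay below it at 3 in place of 2.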
